A study of Mus musculus with 6 samples.

Results

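The 9 genes of retinoid binding and metabolism examined here, in mouse back skin treated with imiquimod cream, were Rbp4, Stra6, Crabp1, Crabp2, Dhrs9, Aldh1a1, Aldh1a2, Aldh1a3 and Cyp26b1. They were chosen by name, as all probes whose gene name on the array was one of the 9 symbols. All 9 genes had a probe, 11 probes in all, out of 27306 gene names on the array, and 10 of the 11 probes passed the filter on dim probes. Whole skin of female C57BL/6J mice, 6 to 8 weeks old when treated, was measured on 6 single-colour (Cy3) Agilent arrays, 3 after imiquimod and 3 after vehicle. Both groups were shaved on the back and received 62.5 mg of cream a day for 7 days, containing 5% imiquimod or vehicle only. Imiquimod activates Toll-like receptor 7, and its repeated use on mouse skin is a common model of psoriasis-like inflammation. Samples carry replicate numbers, but the labels do not say that each came from a separate mouse, so p-values measure the spread between samples, which may be technical.

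The scanner file of each of the 6 arrays was filed under a sample of the opposite treatment. Each file's values matched the value-table column of the sample that the file itself is named for (Spearman correlation 1 over 24088 probes), against 0.944 to 0.953 for the column of the sample under which it was filed. Arrays were therefore grouped by the treatment in the file's own name, which is also that of its matched column, and grouping them as filed turns the sign of every difference. In the grouping used, Krt6b and Lcn2, an epidermal stress keratin and an antimicrobial protein raised in inflamed skin, were higher by 5.41 and 4.46 on the log2 scale after imiquimod, and 9 of 9 measured genes of an imiquimod response list were higher (median 5.41). That list holds genes known to rise in this model, so it bears on the labels and is no result about retinoids.

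Retinol travels in blood bound to RBP4, can enter cells through the receptor STRA6, and is oxidised in a reversible step to retinal and then irreversibly to retinoic acid by the ALDH1A enzymes. Cellular proteins, among them CRABP1 and CRABP2, carry retinoic acid in the cell, and CYP26 enzymes degrade it. Retinoic acid bound to RAR and RXR nuclear receptors regulates genes, and in skin retinoids are known for effects on keratinocyte differentiation, hair follicles and sebaceous glands.

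A promoter window is shown, as a description, for each of a pair of genes that differed between the groups. Any link between the motifs and the direction of a difference was not tested. Each window is the 250 bases before a transcription start in RefSeq (GRCm38.p6), written 5′ to 3′ along the gene's strand. Capitals mark GGGCGG (the GC box) or CCAAT, searched on both strands. Crabp1 lies on the plus strand, its window at chr9:54764498-54764747, and Aldh1a2 on the plus strand, at chr9:71215539-71215788.
Crabp1: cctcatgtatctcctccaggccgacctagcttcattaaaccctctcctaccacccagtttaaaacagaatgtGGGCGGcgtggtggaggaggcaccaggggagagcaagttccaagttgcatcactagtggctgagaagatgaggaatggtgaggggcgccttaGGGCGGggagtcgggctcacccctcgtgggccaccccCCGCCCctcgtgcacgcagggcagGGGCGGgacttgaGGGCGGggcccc
Aldh1a2: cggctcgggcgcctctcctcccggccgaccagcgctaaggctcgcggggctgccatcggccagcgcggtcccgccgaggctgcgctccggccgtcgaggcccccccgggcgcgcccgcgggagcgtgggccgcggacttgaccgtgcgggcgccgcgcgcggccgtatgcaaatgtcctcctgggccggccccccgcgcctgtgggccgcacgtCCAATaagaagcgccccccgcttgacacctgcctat
The Crabp1 window held GGGCGG at 5 places and no CCAAT, and the Aldh1a2 window held 1 CCAAT, from 36 to 32 bases before the start, and no GGGCGG. Of all 32851 windows of this length, 32.7% held GGGCGG and 33.8% held CCAAT. The promoter table held 7 of the 9 genes, in 12 windows, of which 7 held GGGCGG, 4 held CCAAT and 3 held TATAAA (12.4% of all windows). Crabp2 and Aldh1a3 had no entry.

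RAR and RXR bind as a pair to repeated hexamers, and for comparison the windows of a pair of known retinoic acid target genes are shown with such a repeat in capitals. The consensus hexamer searched was AGGTCA, and its variants were counted with it. The first variant, which occurs in both windows printed below, was AGTTCA, while the second variant, with a different opening base, was GGGTCA, and the last variant, which opens the repeat found in the window of Rarb, was GGTTCA. A match needed 2 of these in the same direction with 1, 2 or 5 bases between them, on either strand. Rarb encodes a retinoic acid receptor and lies on the minus strand (window chr14:16575477-16575726), and Cyp26a1, which degrades retinoic acid, lies on the plus strand (chr19:37697558-37697807).
Rarb: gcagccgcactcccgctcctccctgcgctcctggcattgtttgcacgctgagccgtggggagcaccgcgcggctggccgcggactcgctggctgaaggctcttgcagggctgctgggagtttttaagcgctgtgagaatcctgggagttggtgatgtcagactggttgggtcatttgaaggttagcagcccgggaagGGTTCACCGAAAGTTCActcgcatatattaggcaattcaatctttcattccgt
Cyp26a1: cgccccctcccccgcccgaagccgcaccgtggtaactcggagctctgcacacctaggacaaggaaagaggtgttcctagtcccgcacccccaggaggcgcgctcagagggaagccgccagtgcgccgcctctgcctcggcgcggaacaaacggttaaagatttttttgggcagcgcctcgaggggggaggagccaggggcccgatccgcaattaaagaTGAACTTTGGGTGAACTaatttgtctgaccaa
The repeat in Rarb, with 5 bases between the hexamers, read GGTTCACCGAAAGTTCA and lay 53 to 37 bases before the start. In Cyp26a1 the repeat read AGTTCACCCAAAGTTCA on the other strand, 32 to 16 bases before the start, also with 5 bases between the hexamers. Repeats spaced by 5 were found in 0.0883% of all windows, spaced by 1 in 0.164% and spaced by 2 in 0.174%. None of the 12 windows of the 9 genes held one, which says only that these letters are not in these 250 bases.

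Crabp1 and Crabp2, the 2 carriers of retinoic acid within cells, were higher after imiquimod, and Aldh1a2, an enzyme that makes retinoic acid, was lower. The other 6 genes did not pass the test. Signals are log2 values relative to the array's 75th percentile, so 0 is the signal that 75% of probes do not exceed, and each difference is imiquimod minus vehicle. Differences were tested with limma, two-sided, with Benjamini-Hochberg adjustment over 17780 genes at 0.05. Of all genes tested, 23.6% passed, 13.1% as higher and 10.5% as lower, so the 2 higher genes and the 1 lower gene of 9 stand against a treatment that moved many genes. The groups did not overlap in 5 of the 9 genes, against 46.6% of all genes. Median absolute difference was 1.12 over the 9 genes and 0.34 over all genes, and the signed medians were 0.18 and 0.02. The 9 genes were chosen with earlier results of these data known, so these comparisons with all genes are descriptions only.

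**Figure D1:**
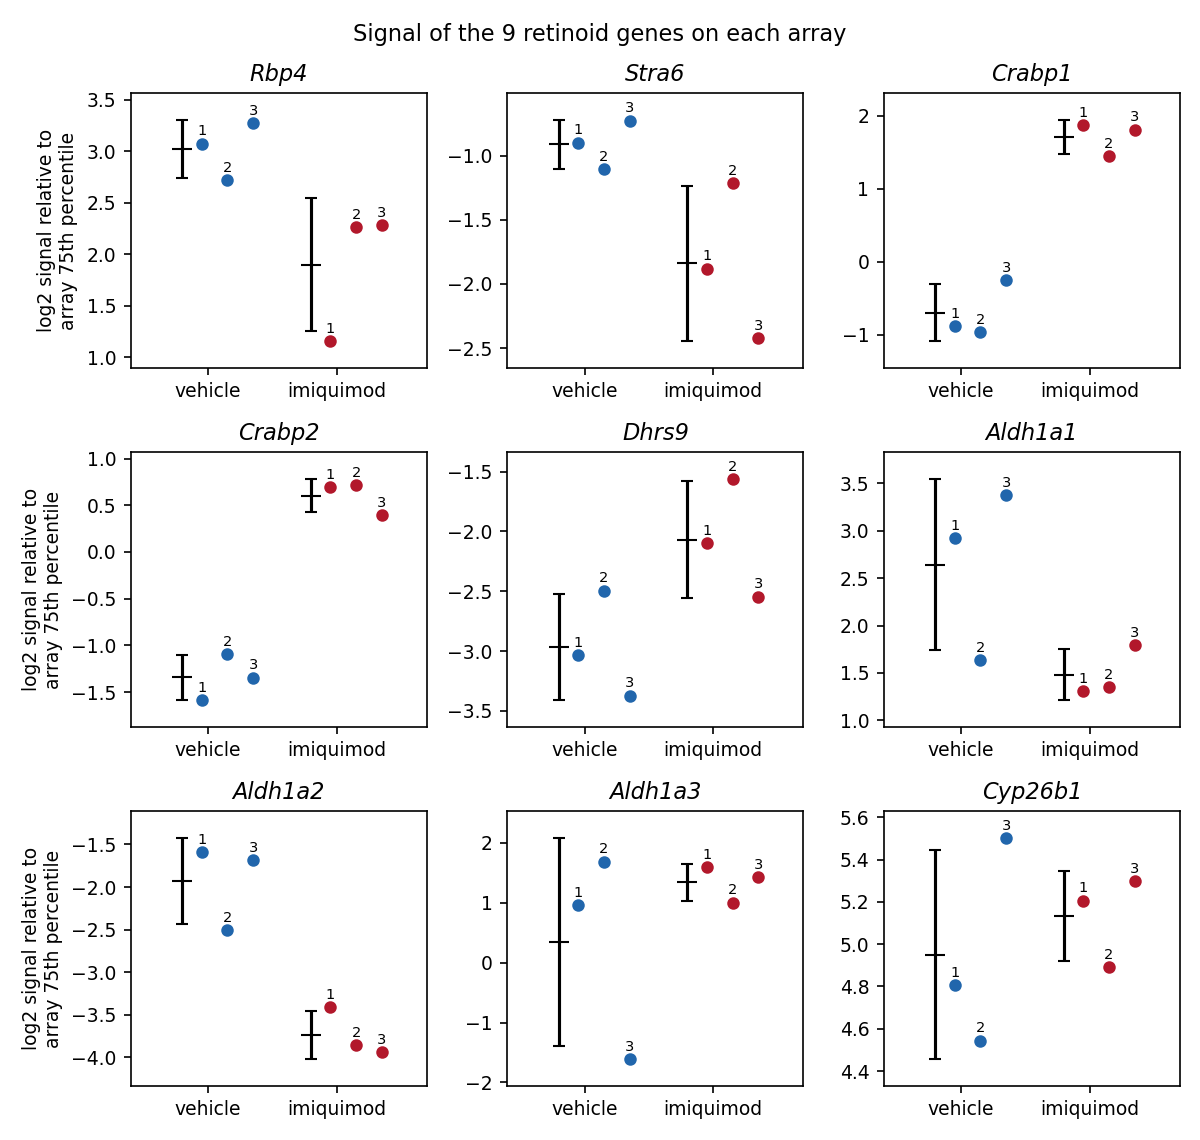
Signal of the probe representing each of the 9 genes on each array, as log2 signal relative to the array's 75th percentile; points are arrays with their replicate number, and the bar beside them is the mean ± SD (n = 3). Groups are apart in Rbp4, Stra6, Crabp1, Crabp2 and Aldh1a2 and overlap in the other 4, and the vertical scale differs between panels.

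Rbp4 encodes the carrier of retinol in plasma. Its signal was 3.07, 2.72 and 3.28 on vehicle arrays 1 to 3 and 1.16, 2.26 and 2.28 on imiquimod arrays 1 to 3. Imiquimod array 1 was the lowest, and every imiquimod array lay below every vehicle array. Means were 3.02 ± 0.28 (SD, n = 3) for vehicle and 1.90 ± 0.64 for imiquimod, a difference of -1.12 (SE 0.34, 95% confidence interval -1.97 to -0.28), which did not pass the test (adjusted p = 0.0634). With normexp background correction the difference was -1.15 and passed (adjusted p = 0.0435). With the array slide as a block it was -1.87 and passed (adjusted p = 0.0285). Slide 2 held no vehicle array, so the block estimate sets imiquimod array 1 alone, the lowest for Rbp4, against the vehicle arrays. Without imiquimod array 1 the difference was -0.75 (adjusted p = 0.0810). The probe lies at chr19:38191129-38191188 on the minus strand of mm9, the build in the array files, as do all probe positions given here.

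Stra6 encodes the membrane receptor for RBP4. Its signal was -0.90, -1.11 and -0.73 on the vehicle arrays and -1.88, -1.22 and -2.42 on the imiquimod arrays. The groups did not overlap, but imiquimod array 2 lay close to vehicle array 2. The difference was -0.93 (SE 0.31, interval -1.69 to -0.16) and did not pass the test (adjusted p = 0.0813). Without imiquimod array 2 it was -1.24 and passed (adjusted p = 0.0372). Stra6 is the member whose probe covers more genome than its own length: its 60 bases span 612 bases, chr9:58000379-58000990 on the plus strand, so its match to the genome is split, and its sequence, all lower case because no motif is marked, is shown for that reason.
Stra6 probe: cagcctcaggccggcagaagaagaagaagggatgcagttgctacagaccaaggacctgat

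Crabp1 encodes a protein that binds retinoic acid in the cytosol. Its signal was -0.88, -0.96 and -0.25 on the vehicle arrays and 1.88, 1.45 and 1.81 on the imiquimod arrays. All 3 imiquimod arrays were above all 3 vehicle arrays, by more than the range within either group. Means were -0.70 ± 0.39 for vehicle and 1.71 ± 0.23 for imiquimod, and the difference of 2.41 (SE 0.23, interval 1.84 to 2.98, adjusted p = 0.00280) is 5.32-fold higher. The probe lies at chr9:54616192-54616251 on the plus strand.

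Crabp2 encodes the related protein that brings retinoic acid to its nuclear receptors. On the vehicle arrays its signal was -1.59, -1.10 and -1.35, and on the imiquimod arrays 0.69, 0.72 and 0.40. Here too the groups were apart by more than the range within either. Means were -1.34 ± 0.24 and 0.60 ± 0.18, and the difference of 1.95 (SE 0.17, interval 1.53 to 2.36, adjusted p = 0.00229) is 3.85-fold higher. Its probe lies at chr3:87752682-87752741 on the plus strand. With the slide as a block, which sets imiquimod array 1 alone against the vehicle arrays, both carriers stayed past the threshold. Crabp1 differed by 2.57 (adjusted p = 0.0285) and Crabp2 by 2.04 (adjusted p = 0.0257).

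Dhrs9 encodes a short-chain dehydrogenase that can oxidise retinol to retinal. Signals were -3.03, -2.49 and -3.37 on the vehicle arrays and -2.10, -1.56 and -2.54 on the imiquimod arrays. Vehicle array 2 lay above imiquimod array 3, so the groups overlapped. The difference of 0.90 (SE 0.33, interval 0.10 to 1.70) did not pass the test (adjusted p = 0.0967). Its other probe, at chr2:69239833-69239892, was above background on only 1 of 3 arrays in each group and was not tested; the tested probe lies at chr2:69242464-69242523, both on the plus strand.

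The 3 ALDH1A enzymes, which oxidise retinal to retinoic acid, gave 3 different patterns. Aldh1a1 had signals of 2.92, 1.64 and 3.38 on the vehicle arrays and 1.31, 1.35 and 1.79 on the imiquimod arrays (probe at chr19:20717764-20717823, plus strand). Vehicle array 2 lay among the imiquimod arrays, while the other vehicle arrays were above all of them. The difference was -1.16 (SE 0.45, interval -2.27 to -0.05) and did not pass (adjusted p = 0.116). Without vehicle array 2 it was -1.66 and passed (adjusted p = 0.00980).

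Aldh1a2 had signals of -1.59, -2.50 and -1.69 on the vehicle arrays and -3.41, -3.86 and -3.94 on the imiquimod arrays (chr9:71143931-71143990, plus strand). Every imiquimod array was below every vehicle array, and all 6 were well above background. Means were -1.93 ± 0.50 for vehicle and -3.74 ± 0.29 for imiquimod, and the difference of -1.81 (SE 0.29, interval -2.51 to -1.11, adjusted p = 0.0104) is 3.51-fold lower. That size depends on the background correction, since the difference was -1.25 with normexp correction (adjusted p = 0.0109). With the slide as a block, so from imiquimod array 1 alone against the vehicle arrays, the difference was -1.48 and did not pass (adjusted p = 0.102).

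Aldh1a3 had signals of 0.97, 1.69 and -1.61 on the vehicle arrays and 1.60, 1.00 and 1.43 on the imiquimod arrays (chr7:73535785-73535844, minus strand). Vehicle array 3 stood far below the other 5 arrays, which overlapped. Vehicle arrays 2 and 3, unlike the other arrays, were marked for evaluation in the array quality check. The difference was 0.99 (SE 0.84, interval -1.06 to 3.04, adjusted p = 0.422), and without vehicle array 3 it was 0.014 (adjusted p = 0.977). A second probe, at chr7:73553907-73553966, read -2.06, -1.03 and -4.73 on the vehicle arrays and -1.28, -1.90 and -1.92 on the imiquimod arrays. It too was lowest on vehicle array 3, and it differed by 0.90 (adjusted p = 0.509 in a fit over 27423 probes, of which 21.2% passed). Both probes therefore place the low value in the same library.

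Cyp26b1 encodes an enzyme that breaks down retinoic acid. Its signals were 4.81, 4.54 and 5.50 on the vehicle arrays and 5.21, 4.89 and 5.30 on the imiquimod arrays (chr6:84521952-84522011, minus strand). The groups overlapped, with the highest and the lowest of the 6 values both on vehicle arrays. The difference was 0.18 (SE 0.27, interval -0.48 to 0.84, adjusted p = 0.661), and it was -0.023 without vehicle array 2. The upper bound of the interval lies below those of the intervals of Crabp1 and Crabp2.

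**Figure D2:**
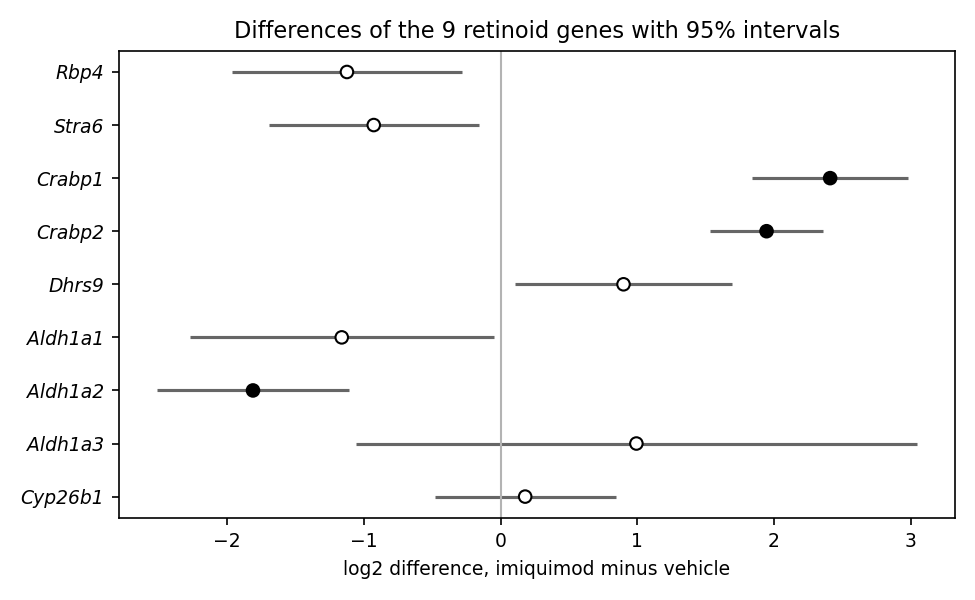
Difference of each of the 9 genes, imiquimod minus vehicle, in log2 units, with 95% confidence intervals from limma (n = 3 a group); filled points passed the adjusted threshold of 0.05. Crabp1 (2.41) and Crabp2 (1.95) lie on the higher side and Aldh1a2 (-1.81) on the lower side, and the interval of Aldh1a3 is the widest.

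The remainder of the pathway was described from lists of retinoid genes: 45 other genes were tested, of which 4 were higher, 8 were lower and 33 did not pass (median -0.17). Of all genes tested, 13.1% were higher and 10.5% lower, and the counts of each list below stand against the same shares. Of the other retinoid carriers and storage genes, 10 of 12 were tested, and 2 were higher, 3 lower and 5 did not pass (median 0.28). Rbp2, a cellular retinol-binding protein best known from the intestine, had signals of -1.81, -0.77 and -1.68 on the vehicle arrays and 1.85, 1.89 and 1.54 on the imiquimod arrays. The groups were far apart, with a difference of 3.18 (SE 0.30, adjusted p = 0.00263). Fabp5, an epidermal fatty acid-binding protein that can also carry retinoic acid, read -1.94, -1.32 and -1.31 against 2.13, 1.34 and 0.80 (difference 2.95, SE 0.37, adjusted p = 0.00544). Every imiquimod array was again above every vehicle array.

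The 3 lower genes of this group were Awat2, Bco1 and Stra6l. A filter asking for a signal well above background on all 6 arrays left all 3 untested, with 2 higher genes and 0 lower in the group. Awat2, an acyltransferase of sebaceous glands that can make retinyl esters, read 1.22, -0.41 and 1.13 on the vehicle arrays and -6.56, -4.68 and -5.49 on the imiquimod arrays, of which 1 was well above background (difference -6.23, SE 0.63, adjusted p = 0.00317). That difference depends on the background correction, since it was -3.91 with normexp correction (adjusted p = 0.00244). Bco1, which cleaves beta-carotene to retinal, was not well above background on any imiquimod array (means -3.19 ± 0.58 and -6.89 ± 0.39, adjusted p = 0.00263). Stra6l, a relative of Stra6, was likewise not well above background on any imiquimod array (means -4.10 ± 0.23 and -5.81 ± 0.40, adjusted p = 0.00717). Both met the filter on dim probes through the vehicle arrays alone, so the size of their differences is not measured. Bco1 was 10.4-fold lower after raising each dimmer imiquimod signal to the lowest signal counted as well above background on its array. No signal of Stra6l was raised by that rule, so its 3.28-fold is the fitted difference. Neither fold is a lower bound, since with normexp correction the differences were -1.06 for Bco1 and -0.54 for Stra6l, both past the threshold. Lrat, the main enzyme that esterifies retinol, read -1.75, -0.62 and -3.65 on the vehicle arrays and -0.23, -0.41 and -0.81 on the imiquimod arrays. It did not pass (difference 1.52, SE 0.74, adjusted p = 0.186); without vehicle array 2 the difference was 2.22 (adjusted p = 0.0463) and without vehicle array 3 it was 0.70 (adjusted p = 0.232).

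Among the retinol and retinal dehydrogenases, 17 of 19 were tested, and 3 were lower, none higher and 14 did not pass (median -0.31). By limma's unadjusted p at 0.05, 2 of the 17 were on the higher side and 7 on the lower side, against 21.3% and 17.7% of all genes by the same rule. Rdh11, a retinal reductase, read 4.08, 3.48 and 4.38 on the vehicle arrays and 1.89, 2.08 and 1.84 on the imiquimod arrays. The groups did not overlap, and the difference was -2.04 (SE 0.24, adjusted p = 0.00473). Rdh1 was also lower (difference -1.44, SE 0.33, adjusted p = 0.0279), as was Adh1, an alcohol dehydrogenase that accepts retinol (difference -1.63, SE 0.45, adjusted p = 0.0485). Both calls depended on single arrays: Rdh1 lost its call without imiquimod array 1 or 3 or vehicle array 1 or 3 (adjusted p 0.0576 to 0.0961), and Adh1 without any 1 array except vehicle 2 (0.0637 to 0.147). Dhrs3, which reduces retinal and is induced by retinoic acid, differed by -0.31 (SE 0.14, adjusted p = 0.148).

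Of the degradation genes other than Cyp26b1, 1 of 4 was tested: Cyp2s1 differed by 0.25 (SE 0.27, adjusted p = 0.531), so none was higher or lower, also by limma's unadjusted p at 0.05. Cyp26a1 was not well above background on any of the 6 arrays, so its promoter's repeat goes with no measured level in these samples.

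Of 11 retinoid receptors, related nuclear receptors and cofactors, 1 was higher, 1 lower and 9 did not pass (median -0.15). Among the 9 was Ncor1, a cofactor, whose probe of highest mean differed by -0.28 (adjusted p = 0.108). All 7 of its tested probes were on the lower side. In the fit over probes, those differing by -0.79, -0.74, -0.59 and -0.56 passed (adjusted p 0.00838 to 0.0392). The call of this gene therefore depends on the probe. Of all probes, 21.2% passed in that fit. Ppard, a nuclear receptor for fatty acids, was higher after imiquimod (means -5.28 ± 0.13 and -4.09 ± 0.33, fitted difference 1.19, adjusted p = 0.0107). It was not well above background on any vehicle array, so it met the filter on dim probes through the imiquimod arrays alone. With the filter on all 6 arrays this list had 0 higher genes and 1 lower. With normexp correction the difference of Ppard was 0.46 and did not pass (adjusted p = 0.0562). Rarg, the main RAR of epidermis, was lower (difference -0.37, SE 0.09, adjusted p = 0.0383), a call that did not survive leaving out any of the 6 arrays in turn (adjusted p up to 0.126). Rarb, whose promoter window holds the repeat shown above, read -2.40, -1.82 and -2.41 on the vehicle arrays and -2.87, -2.86 and -2.21 on the imiquimod arrays. Those groups overlapped, and the difference of -0.44 (SE 0.26) did not pass (adjusted p = 0.253).

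Of 12 genes known to respond to retinoic acid in one tissue or another, 10 were tested, and 1 was higher, 1 lower and 8 did not pass (median -0.24). Rarres1, a retinoic acid receptor responder gene, read 4.32, 3.65 and 4.84 on the vehicle arrays and 0.62, 1.01 and 0.91 on the imiquimod arrays. It was lower on every imiquimod array (difference -3.42, SE 0.31, adjusted p = 0.00256). Krt13, a keratin of mucosal epithelia, was higher by 1.59 (SE 0.39, adjusted p = 0.0345) on the probe of highest mean, while its other probe was lower (difference -2.19, adjusted p = 0.00425), so the direction of this gene differed between probes. The call of its first probe was lost without any 1 array except vehicle 2 (adjusted p 0.0565 to 0.113). The genes of this list did not move one way, and Rarb, Dhrs3 and Lrat, each known as induced by retinoic acid, did not pass.

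The slide as a block sets imiquimod array 1 alone against the vehicle arrays, since slide 2 held no vehicle array. With the block, 5 of these 12 calls were lost: Rdh1 (difference -1.90, adjusted p = 0.0721), Adh1 (-2.02, 0.143), Ppard (1.37, 0.0590), Rarg (-0.34, 0.233) and Krt13 (1.97, 0.114). All but that of Rarg were larger in size than without the block. Rbp2, Fabp5, Awat2, Bco1, Stra6l, Rdh11 and Rarres1 passed with it.

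**Figure D3:**
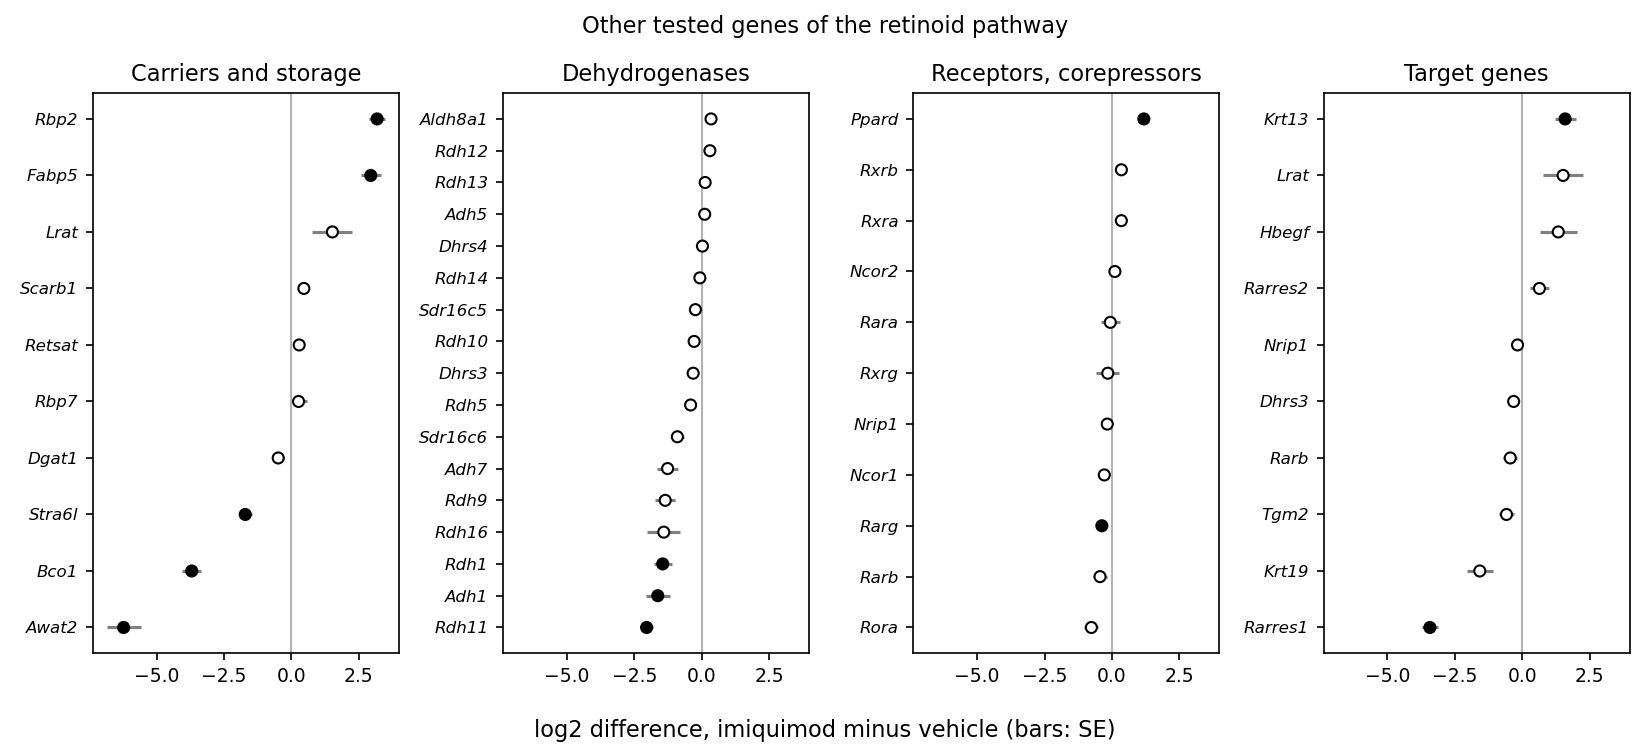
Difference of each tested gene in 4 lists of the retinoid pathway other than the 9 genes, imiquimod minus vehicle, in log2 units with standard errors (n = 3 a group); filled points passed the adjusted threshold of 0.05. Rbp2 (3.18) and Fabp5 (2.95) lie farthest to the higher side and Awat2 to the lower side (-6.23, with 1 of 3 imiquimod arrays well above background), and a gene on 2 lists is drawn in both.

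Signals of cell type marker genes moved with the treatment. In whole tissue, fewer cells of a type and less RNA per cell cannot be told apart. Summed linear signal of 11 hair follicle markers, relative to each array's 75th percentile, was 826, 1557 and 129 on the vehicle arrays and 4.60, 4.33 and 6.00 on the imiquimod arrays; 9 of the 11 were lower and Krt25, Krt34 and Krt85 were not well above background on any imiquimod array. For 9 sebaceous markers the sums were 200.2, 150 and 265 against 59.7, 67.0 and 65.7, with 6 of 8 tested lower, among them Elovl3 (-5.41) and Soat1 (-2.13), which make sebum lipids and sterol esters. Dermal papilla markers summed to 4.34 to 13.9 on vehicle and 2.25 to 3.02 on imiquimod arrays, with 4 of 7 lower. Melanocyte markers summed to 14.9 to 118 and 14.6 to 18.4, with 2 of 9 lower and none higher.

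Markers of neutrophils, keratinocytes, fibroblasts, macrophages and endothelium included higher genes. Neutrophil markers summed to 3.92 to 43.4 on vehicle arrays and 782 to 899 on imiquimod arrays, with 8 of 9 higher. That sum is mostly S100a8 and S100a9, which are also on the imiquimod response list. On imiquimod arrays 1 to 3, S100a8 read 8.23, 8.47 and 7.90 in log2 signal, and S100a9 read 9.14, 9.08 and 9.08. No other neutrophil marker read above 1.03 on any array, so the sum says little about the others. Keratinocyte markers summed to 1001 to 1318 and 1905 to 2097 (4 of 9 higher), fibroblast markers to 629 to 897 and 1038 to 1176 (6 of 10), macrophage and dendritic cell markers to 107.3 to 228 and 318 to 383 (5 of 10 higher, 1 lower) and endothelial markers to 13.6 to 22.1 and 34.2 to 37.9 (6 of 10). Adipocyte sums, 271 to 565 and 256 to 349, and muscle sums, 536 to 1416 and 427 to 741, overlapped, with 1 of 10 markers lower in each, and T cell sums were 1.96 to 3.26 and 0.68 to 1.54 (1 of 7 lower).

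Some retinoid genes followed these markers from array to array within the vehicle group. Aldh1a3 and Lrat were both lowest on vehicle array 3 and highest on vehicle array 2, as were the hair follicle, dermal papilla and melanocyte sums. Dhrs9, Bco1, Rarb, Cyp2s1 and the brighter Krt13 probe had this order too, so it was not particular to Aldh1a3 and Lrat. With only 3 vehicle arrays, few orders are possible. On the imiquimod arrays, where the follicle sum was lowest, Aldh1a3 and Lrat were above vehicle arrays 1 and 3. Aldh1a1, Adh1 and Rdh11 ran in the order vehicle 3, 1, 2 from high to low, as did Rbp4, Stra6, Crabp1 and Cyp26b1. The sebaceous, fibroblast, adipocyte, macrophage, endothelial and muscle sums ran in this order too, so it was shared by many genes and many cell types' markers. Aldh1a1, Adh1 and Rdh11 each had their lowest value on an imiquimod array. Crabp1 and Crabp2 were on the same side as the keratinocyte, fibroblast, neutrophil, macrophage and endothelial sums, and Aldh1a2 on the same side as the follicle, sebaceous, dermal papilla and T cell sums, all without overlap between the groups. The part of any cell type in these differences was not tested.

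**Figure D4:**
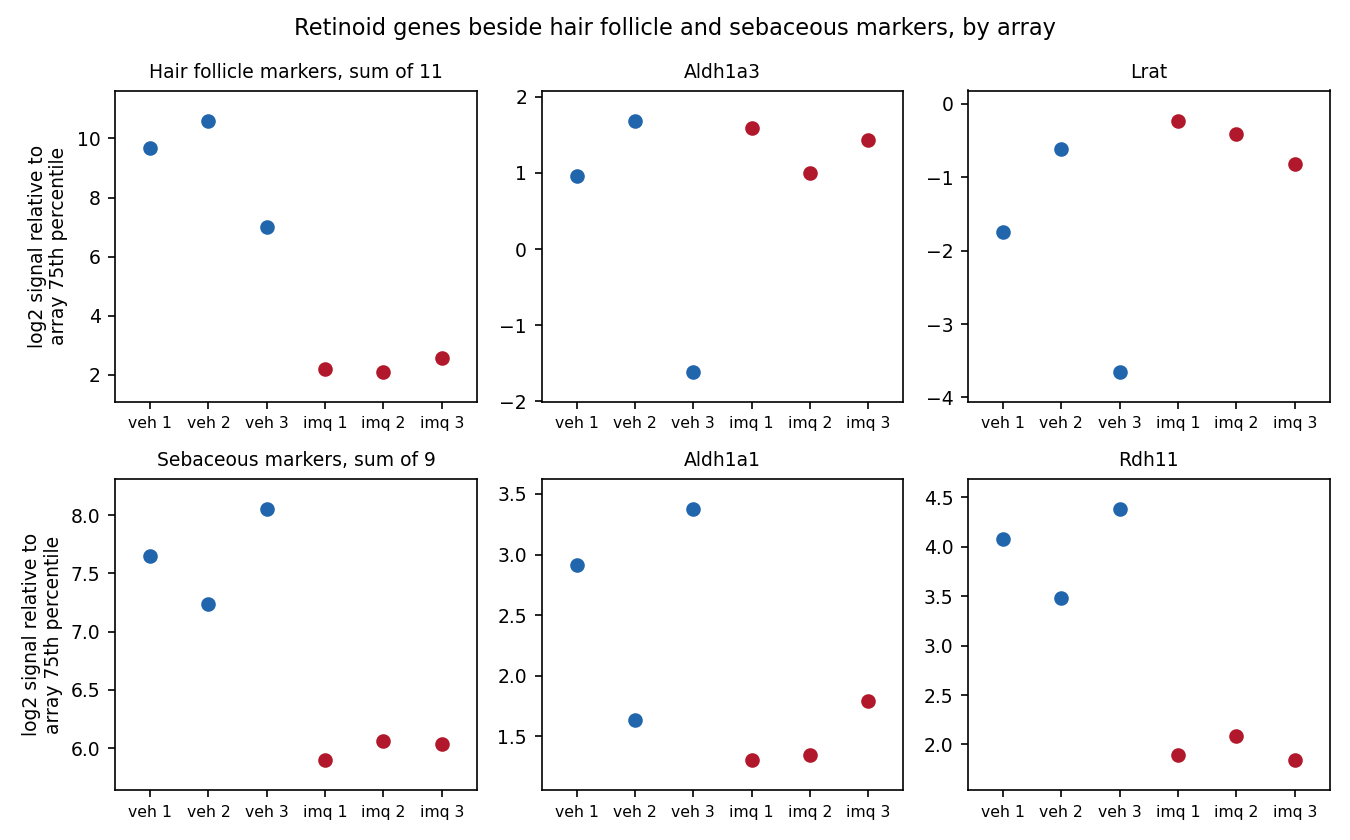
Log2 signal relative to the array's 75th percentile, by array (vehicle blue, imiquimod red): the sum of 11 hair follicle markers beside Aldh1a3 and Lrat, and the sum of 9 sebaceous markers beside Aldh1a1 and Rdh11. Vehicle array 3 is the lowest vehicle array for the follicle sum, Aldh1a3 (-1.61) and Lrat (-3.65), and also for Dhrs9 (-3.37), which is not drawn. The sebaceous sum, like those of 5 other cell types, shares its order over the vehicle arrays with Aldh1a1 and Rdh11. Rbp4, Stra6, Crabp1 and Cyp26b1, not drawn here, share that order too.

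Over the 6 arrays, the named genes whose profile was most like that of Crabp1 were Plvap, an endothelial membrane protein, and Slfn9, each with Pearson r of 0.999. For Crabp2 they were Glrx (1.000) and Arg1 (0.999), a redox protein and arginase, and for Aldh1a2 Serpina3j and Il13ra2, a decoy receptor for interleukin-13 (0.994 each). Among the 9 genes, Crabp1 and Crabp2 correlated with each other at 0.954, Crabp2 with Aldh1a2 at -0.953 and Aldh1a1 with Dhrs9 at -0.912. All these correlations span both groups and so mostly restate the difference between them.

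Imiquimod arrays correlated with each other at 0.992, vehicle arrays at 0.960 to 0.983, and arrays of different groups at 0.942 to 0.954, over 24256 probes. Between 61.6% and 67.8% of spots were well above background, and the 75th percentile of signal was 917 to 1166. The quality status was evaluate for vehicle arrays 2 and 3 and in range for the other arrays. Imiquimod array 1 and the 3 vehicle arrays shared slide 1, and imiquimod arrays 2 and 3 were on slide 2. Within slide 1, where 1 imiquimod array faced 3 vehicle arrays, Crabp1 differed by 2.57, Crabp2 by 2.04 and Aldh1a2 by -1.48, with adjusted p of 0.0921, 0.0867 and 0.217. Spread in that fit comes from the vehicle arrays alone. By its unadjusted p at 0.05, 2 of the 9 genes were higher and 3 lower, against 9.77% and 9.66% of all genes.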

How the data were processed

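The authors deposited 1 scanner file of spot intensity per array, with a processed signal (background subtracted and detrended by Agilent Feature Extraction 10.7.3.1, per the file headers; the submitters' processing notes name version 9.1), and a value table on a log2 scale whose normalization between arrays is not stated (column medians 7.05). Because scanner files and sample labels disagreed, arrays took the group of the value-table column they matched. Control spots and 322 outlier spots were left out, which kept 41115 of 41174 probes. On each array the 75th percentile was subtracted from the log2 processed signal. A probe entered the test if 3 or more of the 6 arrays had it well above background (27423 probes), and the brightest such probe on average stood for its gene (17780 genes). Probes were named through RefSeq accessions or synonyms where these matched (27729 and 458), and otherwise kept the file's name. The group comparison used lmFit and eBayes of limma 3.58.1 (R 4.3.3) without covariates and was tested on simulated data.

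The 9 genes, the pathway and marker lists and the naming rule were chosen with earlier results of these data known. Some genes of the pathway lists are not reported here and enter none of the lists' counts. Named were the 9 genes, up to 4 genes per pathway list and direction by p-value, and Cyp26a1, Rarb, Lrat and Dhrs3. Also named were up to 2 genes per marker list and the 2 symbols most correlated with each of the 9 that passed. Cyp2s1, Krt34, Krt85, Ncor1, S100a8 and S100a9 were added after their values were seen. Arrays with the same number did not deviate together (correlations of -0.087, 0.068 and 0.086 for numbers 1 to 3), so the samples were treated as unpaired. Alternatives were the filed grouping, the deposited log2 value table, quantile normalization, normexp correction (offset 50), other filters and probe rules, a variance trend, slide and replicate blocks, each array left out, and, added after seeing the data, leaving out 2 arrays marked for evaluation. Only 3 arrays a group limit the precision.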

Additional observations from a re-analysis of the deposited data

How the results depend on the processing

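Crabp1, Crabp2 and Aldh1a2 kept their direction and their call with the deposited value table, quantile normalization, normexp correction, both other filters, the mean of a gene's probes, the variance trend, the replicate block and each array left out; grouping the arrays as filed turns every sign by construction. Medians over all genes moved by less than 0.1 under every setting. With only 3 arrays a group, and imiquimod arrays 2 and 3 alone on slide 2, slide and treatment are partly confounded. With the slide as a block, each estimate is that of imiquimod array 1 against the vehicle arrays, the same as within slide 1. Counts of all genes, 2329 higher and 1864 lower, were 545 and 519 with the slide as a block, 7 and 1 within slide 1 (1 imiquimod array, so fewer samples), and 944 to 2514 and 745 to 2214 with 1 array left out.

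Of the 9 genes, leaving out 1 array gave 2 higher throughout and 1 to 2 lower. It was 2 lower with normexp correction, 2 lower without the 2 arrays marked for evaluation (which leaves 1 vehicle array, assumed to vary like the imiquimod arrays), 1 higher and 2 lower as filed, and 0 and 0 within slide 1, where limma's unadjusted p at 0.05 gave 2 higher and 3 lower (against 9.77% and 9.66% of all genes). Of the other pathway genes, 4 higher and 8 lower became 8 and 4 as filed, 2 higher with the slide as a block, and 0 and 0 within slide 1 (4 and 10 unadjusted). With 1 array left out, 3 to 6 were higher and 5 to 11 lower, with 5 lower without imiquimod array 1, imiquimod array 3 or vehicle array 1. Causes other than the construction of the setting were not tested.

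The numbers do not pair the samples, and the fit with the replicate number as a block gave 1164 higher and 1043 lower genes, and 5 lower among the other pathway genes. Its estimate for Dhrs9 stayed at 0.90 with an adjusted p of 0.0278.

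Grouped as filed, the differences were -2.41 for Crabp1, -1.95 for Crabp2, 1.12 for Rbp4, 1.16 for Aldh1a1, 1.81 for Aldh1a2, -0.99 for Aldh1a3, -0.18 for Cyp26b1, 0.93 for Stra6 and -0.90 for Dhrs9. Among the other genes they were -3.18 for Rbp2, -2.95 for Fabp5, 3.70 for Bco1, 6.23 for Awat2, 1.71 for Stra6l, 2.04 for Rdh11, 1.44 for Rdh1, 1.63 for Adh1, -1.19 for Ppard, 0.37 for Rarg, -1.59 for Krt13, 3.42 for Rarres1, 0.44 for Rarb, -1.52 for Lrat and 0.31 for Dhrs3; those of Bco1, Awat2, Stra6l and Ppard rest on dim arrays and are fitted values, not measured differences. Apart from the filed grouping, 2 signs turned: Cyp26b1 at -0.023 without vehicle array 2 (up to 0.46 with another array left out), and Krt13 at -0.30 with the mean of its probes, which differ in direction.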
